A study of Mus musculus with 28 samples.

Results

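The promoters of 20807 protein-coding genes on the 19 mouse autosomes were sorted by 2 histone marks in adenosine A2a receptor-expressing (A2a) neurons of the striatum, the medium spiny neurons (MSNs) of the indirect pathway. A gene was placed by whether a called H3K4me3 peak, a called H3K27me3 island, both or neither overlapped its transcription start site (TSS) window by at least 1 bp. The window ran from 2 kb upstream to 1 kb downstream of the annotated 5′ end of the gene. Of the 20807 genes, 2047 held both marks, 10284 held H3K4me3 only, 2614 held H3K27me3 only and 5862 held neither, out of 55450 annotated genes of all kinds and chromosomes.

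Nuclei came from the striatum of male and female Sun1-sfGFP;A2a-cre mice on the C57BL/6J background at about 8 weeks of age, with the striatum of 1 mouse per replicate. In these mice Cre driven by the A2a gene switches on a nuclear membrane protein fused to GFP, and nuclei that carry it are pulled out with an antibody to GFP on beads (INTACT). The marks were mapped by CUT&RUN (CnR), in which an antibody guides a nuclease to the nucleosomes it binds, with the H3K4me3 antibody from Abcam in 2 replicates and the H3K27me3 antibody from Active Motif in 2 replicates. D1 neurons from Sun1-sfGFP;Drd1-cre mice of the same background, profiled with the same antibodies in 2 replicates each, serve below for comparison only. For each mark and cell type the 2 replicates were pooled into 1 list before deposition. The spread between mice is therefore not visible, no test was made, and each interval given covers counting error over genes only. The lists do not give the number of reads behind them, and the marks were mapped in separate samples of nuclei. A promoter listed with both marks can carry them on the same nucleosome or in different nuclei, and the lists cannot tell these apart.

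H3K4me3, trimethylation of lysine 4 of histone H3, is laid down around the start sites of active and poised genes, above all at promoters rich in unmethylated CpG dinucleotides. H3K27me3 is the mark of Polycomb repressive complex 2 and covers silenced developmental genes, often as broad domains. Promoters that carry both, called bivalent, were described in embryonic stem cells at regulators of development.

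The sequence just before the start site differed between the states, and 5 promoters show this range. Each line gives the 200 bases upstream of the annotated start of the first named gene of a state, 5′ to 3′ on the strand of the gene, with every CpG in capitals. The sequences are from the GRCm38 reference, the build of the peak lists (mm10). Syt1 (both marks) had the widest H3K4me3 peak among genes with both marks, at chr10:109010983-109011182 on the minus strand. Hoxd1 (both marks) lay in the island with the most reads among such genes, at chr2:74762780-74762979 on the plus strand. Cacna2d3 (H3K4me3 only) had the widest peak of its state, at chr14:29721865-29722064 on the minus strand. Hoxc13 (H3K27me3 only) lay in the island with the most reads of all, at chr15:102920903-102921102 on the plus strand. Olfr1 (neither mark) is the olfactory receptor first in symbol order, at chr11:73399615-73399814 on the minus strand.
Syt1: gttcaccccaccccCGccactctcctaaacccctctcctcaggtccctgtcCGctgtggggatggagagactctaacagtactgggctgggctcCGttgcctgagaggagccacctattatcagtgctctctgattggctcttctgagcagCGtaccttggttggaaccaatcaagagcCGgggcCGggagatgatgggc
Hoxd1: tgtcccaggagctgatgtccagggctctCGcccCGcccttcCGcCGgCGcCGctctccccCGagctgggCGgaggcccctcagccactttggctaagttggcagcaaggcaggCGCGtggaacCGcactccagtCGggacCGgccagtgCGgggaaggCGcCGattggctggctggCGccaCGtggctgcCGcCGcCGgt
Cacna2d3: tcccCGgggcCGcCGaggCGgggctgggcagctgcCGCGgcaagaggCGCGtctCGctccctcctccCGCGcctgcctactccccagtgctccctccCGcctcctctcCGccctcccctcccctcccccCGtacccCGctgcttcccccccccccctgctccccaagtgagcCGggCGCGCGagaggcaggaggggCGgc
Hoxc13: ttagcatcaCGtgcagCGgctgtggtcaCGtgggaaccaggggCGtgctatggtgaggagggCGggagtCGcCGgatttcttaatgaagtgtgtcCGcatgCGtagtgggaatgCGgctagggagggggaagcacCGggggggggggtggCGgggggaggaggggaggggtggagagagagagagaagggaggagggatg
Olfr1: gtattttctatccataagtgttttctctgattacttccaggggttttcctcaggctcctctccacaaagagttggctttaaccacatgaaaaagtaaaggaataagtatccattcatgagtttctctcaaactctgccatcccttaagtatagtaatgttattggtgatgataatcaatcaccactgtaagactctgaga

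Syt1 held 6 CpGs in these 200 bases, Hoxd1 21, Cacna2d3 20, Hoxc13 12 and Olfr1 0. Over all genes of a state the median number in the same stretch was 13 for H3K4me3 only, 11 for both marks, 3 for H3K27me3 only and 1 for neither. The Syt1 stretch is thus poorer in CpGs than most promoters with both marks, whose middle 50% of genes held 6 to 17. Hoxc13 is richer than most promoters with H3K27me3 only, whose middle 50% held 1 to 7.

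The share of the 20807 genes with both marks was 9.84% (Wilson 95% interval 9.44 to 10.2%). H3K4me3 only was the largest state at 49.4%, neither followed at 28.2%, and H3K27me3 only took 12.6%. In all, 59.3% of genes had a peak and 22.4% had an island in the window. Among the 4661 genes with an island, 43.9% also had a peak. Had the marks fallen on genes independently, 2762 genes would have held both, so the ratio of this expected number to the observed 2047, the mutually exclusive index, was 1.35 (1.29 to 1.41). A value above 1 means fewer genes with both marks than independence gives.

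Within classes of like promoter sequence the point value of the index was lower. CpG content was measured as the observed over the expected number of CpGs within 500 bp either side of the TSS, and the genes were divided into 4 classes of equal size, with class 1 poorest in CpGs. The median ratio was 0.749 for H3K4me3 only, 0.663 for both, 0.282 for H3K27me3 only and 0.163 for neither. In class 4 a peak was called at 97.7% of genes, and in class 1 at 4.15%. Islands followed a different course, with 20.3% of genes in class 1, 34.5% in class 2, 22.6% in class 3 and 12.2% in class 4. The index was 0.998 (0.744 to 1.34) in class 1 and 1.28 (1.185 to 1.374) in class 2. It was 1.27 (1.196 to 1.353) in class 3 and 1.15 (1.06 to 1.24) in class 4. Each value was below the pooled 1.349, but the intervals of classes 2 and 3 included it. The index has a low ceiling where nearly every gene has a peak, so class 4 cannot be compared with the pooled value. There 85.2% of genes with an island had a peak, against 97.7% of all genes of the class. Genes with both marks were most frequent in class 3, at 16.2%, against 0.846% in class 1, 11.9% in class 2 and 10.4% in class 4.

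**Figure D1:**
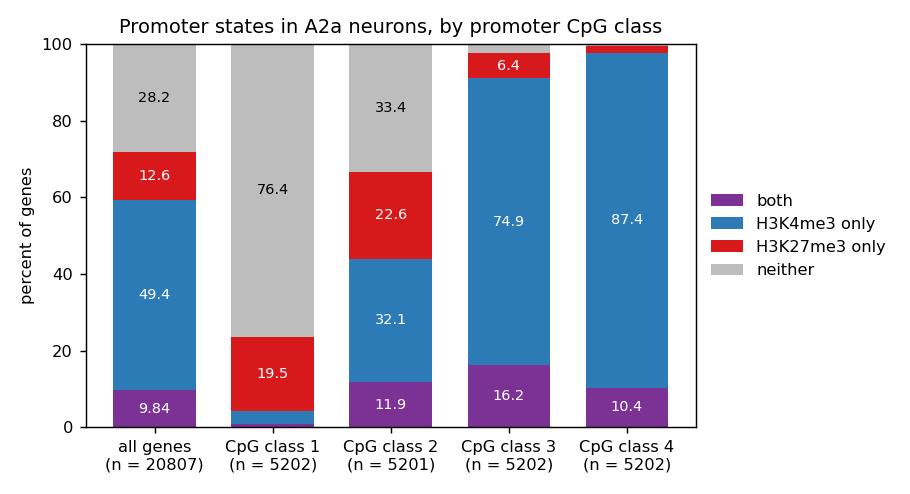
Percent of protein-coding autosomal genes of A2a neurons in each promoter state, for all 20807 genes and for 4 classes of promoter CpG content (class 1 poorest). Neither falls from 76.4% of class 1 to 0.442% of class 4, H3K4me3 only rises from 3.31% to 87.4%, and genes with both marks are most frequent in class 3.

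H3K4me3 peaks at genes with both marks were narrower and weaker than those at genes with H3K4me3 only. For each gene the widest peak in the window was taken. Its median width was 1331 bp (1306 to 1355) at genes with both marks and 1674 bp (1664 to 1686) at genes with H3K4me3 only. Fold enrichment at the summit, as the peak caller gives it against local background, had a median of 6.79 (6.63 to 6.92) with both marks and 7.86 (7.80 to 7.92) with H3K4me3 only. The −log10 q-value separated the states most, with medians of 40.2 and 137.9. Of genes with both marks, 36.9% had a peak at or above the median −log10 q of the whole list, against 90.3% of genes with H3K4me3 only. The difference in width was present in every CpG class, from 1111 against 1218 bp in class 1, where the intervals overlapped, to 1539 against 1849 bp in class 4. Sorted by width, 31.0% of genes in the narrowest quartile of peaks also had an island (240 to 1291 bp), and 9.55% in the widest quartile (2022 to 4611 bp).

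Wide peaks were not missing from genes with both marks. The 5 widest were at Syt1, Ankrd63, Sox2, Igfbp5 and Tle1. Syt1, which encodes the calcium sensor of synaptic vesicle release, had a peak of 3807 bp with a fold enrichment of 2.76 and a −log10 q of 78.2. Sox2, a transcription factor of neural progenitors, had a peak of 3758 bp with a fold enrichment of 2.66, inside an island of 12.8 kb and 973 reads. Igfbp5, a binding protein of insulin-like growth factors, had a peak of 3757 bp inside an island of 14 kb and 1080 reads. At Ankrd63 the peak was 3779 bp and the island 4.8 kb. The peak at Tle1, a Groucho-family corepressor, spanned 3752 bp and did not touch the 4.6 kb island further upstream in its window. The islands at Syt1, Ankrd63 and Tle1 were short, with 202, 314 and 283 reads, below the median of 571 for genes with both marks.

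The widest peaks of genes with H3K4me3 only reached 4611 bp. They lay at Cacna2d3, an auxiliary subunit of voltage-gated calcium channels, at Foxo3 (4597 bp), at Kcnj2 (4579 bp), an inward rectifier potassium channel of MSNs, at Hey1 (4565 bp), a Notch target, and at Lrrtm3 (4494 bp), a synaptic adhesion protein. Their fold enrichments of 2.65 to 3.69 were all below the median of their state. Across quartiles of peak width the median fold enrichment was 8.70 in the narrowest, 9.04 and 7.76 in the next and 5.85 in the widest.

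H3K27me3 islands at genes with both marks were, over all genes and as called, somewhat longer and denser than at genes with H3K27me3 only. The longest island in the window had a median length of 7 kb (6.6 to 7.2) with both marks and 5.6 kb (5.4 to 5.8) with H3K27me3 only. With islands within 5 kb of each other merged first, the ratio of these lengths was 1.07 (0.9355 to 1.22), which no longer separates the states. It held a median of 571 reads (534 to 606) against 391 (373 to 411). Density, the reads per kb of island, was 82 (80.1 to 83.8) against 71.4 (70.5 to 72.8). Islands of 10 kb or more were found at 32.3% of genes with both marks and at 26.1% of genes with H3K27me3 only. Both values lie above the whole list of 60191 islands, where the median held 211 reads. Long islands overlap a window more easily than short ones and the longest was taken, which favours long islands in both states.

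Within promoters rich in CpGs the order was the opposite. In class 3 the median density was 84 reads per kb (81.1 to 86.6) at 844 genes with both marks and 109.5 (104 to 117) at 333 genes with H3K27me3 only. In class 4 it was 83.6 (79.8 to 86.7) at 541 genes and 123.4 (116 to 135) at 94 genes. Island length in class 4 was 7.6 kb with both marks and 19.6 kb with H3K27me3 only. In classes 1 and 2 density was slightly higher with both marks, at 67.6 against 63.3 and at 79 against 74.1 reads per kb. The states are spread unevenly over the classes, with 38.75% of genes with H3K27me3 only in class 1, against 2.15% of genes with both marks.

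Ranking the same genes with an island by its density shows this contrast from the other side and is not separate evidence. In classes 3 and 4 together, a peak was called at 91.2% (88.2 to 93.4) of genes in the quartile with the sparsest islands, at 83.0% and 77.9% in the next quartiles, and at 53.7% (49.2 to 58.3) in the quartile with the densest. In classes 1 and 2 together the share went the other way, from 13.1% (10.8 to 15.7) to 33.5% (30.1 to 37.0). These 2 classes differ, with a peak at 4.16% of genes with an island in class 1 and at 34.5% in class 2. Islands were also sparser in class 1. How much of the rise comes from this mixture was not tested. Where a peak was present its −log10 q was lower at denser islands in both sets, from a median −log10 q of 92.5 to 24.2 in classes 3 and 4 and from 40.8 to 18.7 in classes 1 and 2. Over the 2047 genes with both marks, Spearman's rho between −log10 q of the peak and density of the island was -0.34 and between peak width and island length -0.051, a description across genes that share 1 pooled list for each mark.

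**Figure D2:**
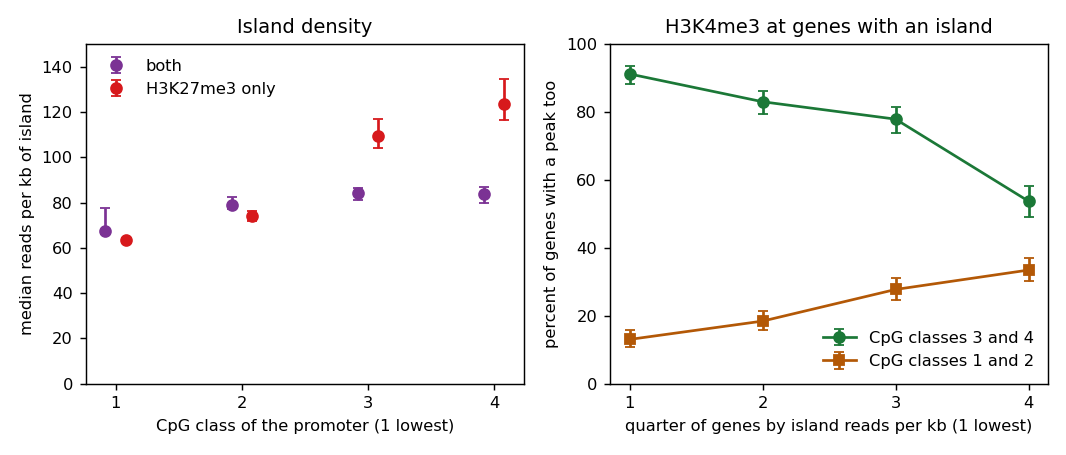
Left, median reads per kb of the longest H3K27me3 island (vertical axis) in 4 classes of promoter CpG content (horizontal axis) for genes with both marks and with H3K27me3 only, with order-statistic 95% intervals. Right, percent of genes with an island that also had an H3K4me3 peak, by quartile of island density (1 sparsest), with Wilson 95% intervals: the share falls from 91.2% to 53.7% in CpG classes 3 and 4 and rises from 13.1% to 33.5% in classes 1 and 2. The pooled classes 1 and 2 differ in this share, at 4.16% and 34.5%.

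The islands with the most reads lay over homeobox clusters. The strongest, at chr15:102900601-103072600, ran over 172 kb with 26415 reads and covered the windows of 9 Hoxc genes, all with H3K27me3 only. The Hoxd island at chr2:74637001-74769800 held 23461 reads over 132.8 kb and took in the windows of 11 genes, of which Hoxd1 alone also had a peak. That peak was 581 bp wide with a −log10 q of 15.3. Hoxb9 to Hoxb1 shared an island of 138 kb and 21364 reads with no peak in any of their 9 windows. Hoxa7 was the 1 gene with a peak (449 bp) among 10 on an island of 68.4 kb. Outside these clusters, the islands with the most reads at genes with H3K27me3 only were at Nkx2-1, a regulator of ventral forebrain and interneuron fate, with 18215 reads, and at Otop1, whose island of 128.8 kb and 18133 reads it shared with Drd5, a dopamine receptor.

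The other genes with both marks and the most island reads were Smyd2, Gng2 and Zic4. Smyd2, a lysine methyltransferase, had a peak of 1374 bp in an island of 194.2 kb and 19931 reads, the longest at any gene with both marks. Gng2, a G protein gamma subunit, had a peak of 1873 bp in an island of 100.8 kb and 16870 reads. At Zic4, a zinc finger regulator, the peak was 337 bp with a −log10 q of 3.38, among the weakest in the list, while its neighbour Zic1 on the same 80 kb island had no peak. Because clusters share islands, the 2614 genes with H3K27me3 only rested on 2444 distinct longest islands and the 2047 with both marks on 1962. Of the 4480 islands in any window, 63 served genes with and without a peak.

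Where both marks were present, the peak usually sat within the island. At 1498 of the 2047 genes (73.2%, 71.2 to 75.05) the widest peak lay wholly inside an island of the window. At 346 genes (16.9%) peak and island overlapped in part, and at 203 genes (9.92%) no peak of the window overlapped an island. The start site itself lay in an island at 81.7% of genes with both marks and at 82.4% of genes with H3K27me3 only. It lay in a peak at 76.6% of genes with both marks and at 90.9% with H3K4me3 only. The summit of the widest peak was at a median of 294 bp (274 to 324) downstream of the TSS with both marks and 228 bp (221 to 236) with H3K4me3 only. Islands covered the whole window at 51.9% of genes with both marks and at 43.3% of those with H3K27me3 only.

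**Figure D3:**
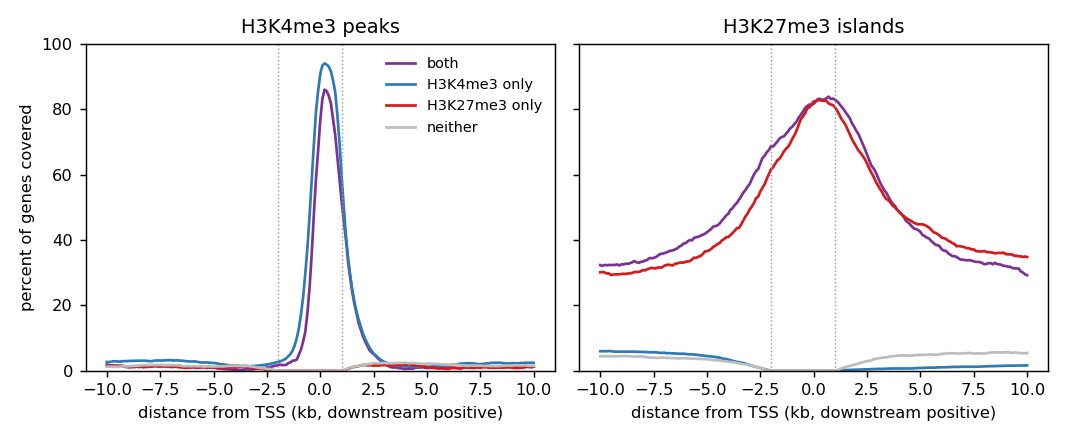
Percent of genes in each promoter state covered by an H3K4me3 peak (left) or an H3K27me3 island (right), by distance from the TSS in kb, with dotted lines at the limits of the window that defined the states. At the TSS peaks cover 76.6% of genes with both marks and 90.9% with H3K4me3 only, while islands at 5 kb downstream still cover 42.5% of genes with both marks and 44.8% with H3K27me3 only.

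Width and strength differed between these positions. A long island encloses a peak more easily and a narrow peak is more easily enclosed. How much of the differences comes from this geometry was not tested. Peaks inside an island had a median width of 1258 bp and a −log10 q of 29.6, peaks that overlapped in part had 1568 bp and 84.7, and peaks apart from the island had 1458 bp and 139.4, next to 137.9 for genes with H3K4me3 only. The islands ran the other way, with a median of 770 reads and 89.3 reads per kb around enclosed peaks, 217.5 reads and 67.2 reads per kb at partial overlap, and 283 reads and 67.6 reads per kb where the marks were apart. Set against the median −log10 q of all peaks and the median reads of all islands, 1144 genes (55.9%) paired a peak below its median with an island at or above it, and 194 (9.48%) the reverse. Both marks stood at or above their medians at 561 genes (27.4%). Each mark taken alone already leans this way, since 36.9% of these genes had a peak at or above its median. Islands in a window mostly exceed the list median, with a median percentile by reads of 87.5 with both marks and 78.1 with H3K27me3 only. Whether the pairing goes beyond these separate shares was not tested.

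**Figure D4:**
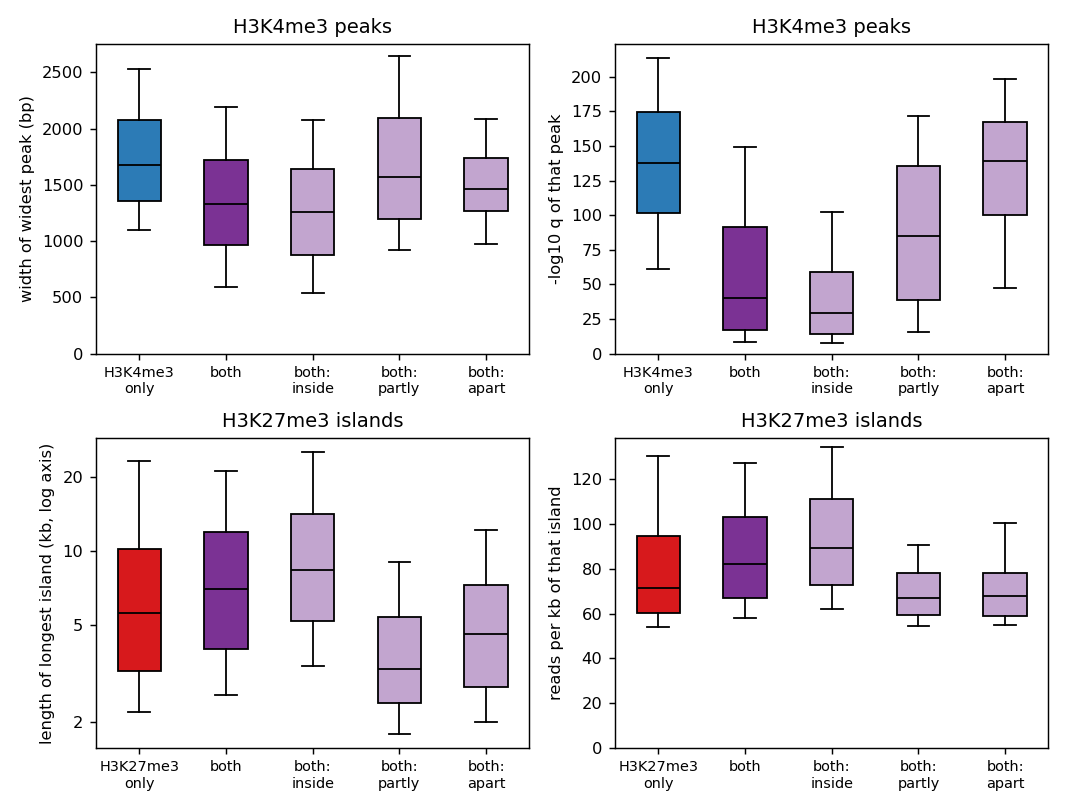
Width and −log10 q-value of the widest H3K4me3 peak, and length and reads per kb of the longest H3K27me3 island, for genes with 1 mark, with both marks, and with both marks split by whether the peak lay inside the island, overlapped it in part or lay apart. Boxes are quartiles with the median and whiskers run from the 10th to the 90th percentile of genes; peaks inside an island have a median −log10 q of 29.6, against 139.4 where peak and island are apart.

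Genes were then read by family. Of 241 developmental regulators, in 13 families of transcription factors and signalling ligands, 60.2% held H3K27me3 only, 24.1% both marks, 11.2% H3K4me3 only and 4.56% neither, next to 12.6%, 9.84%, 49.4% and 28.2% of all genes. All 39 Hox genes had an island, and 37 of them no peak. The 5 Gata genes, regulators of blood, heart and endoderm, had H3K27me3 only, led by Gata4 with 9973 reads. Among 9 Pax genes, Pax6 alone had both marks, with a peak of 479 bp in an island of 10006 reads. For the T-box genes the symbol pattern also caught Tbxas1 and Tbxa2r, which are not T-box factors and were set aside. Of the remaining 14, 13 had H3K27me3 only, and Tbx6 had a peak of 369 bp and no island.

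Other families held genes in several states, next to 59.3% of all genes with a peak. By state, all genes divided into 9.84% both, 49.4% H3K4me3 only, 12.6% H3K27me3 only and 28.2% neither. Of 6 Dlx genes, which direct the GABAergic fate from which MSNs arise, Dlx1, Dlx2, Dlx5 and Dlx6 had both marks and Dlx3 and Dlx4 had H3K27me3 only. The Dlx5 peak was 3361 bp wide with a −log10 q of 232 in an island of 1291 reads, whereas the island at Dlx4 held 4256 reads. Of 18 Sox genes, 8 had both marks and 5 had H3K4me3 only. The latter were Sox4, Sox8, Sox11, Sox12 and Sox30, with Sox11 at 4442 bp. Sox17, Sox14, Sox7 and Sox10 had H3K27me3 only. Fox genes were spread over 9 with both, 11 with H3K4me3 only, 18 with H3K27me3 only and 3 with neither. The widest Fox peaks without an island were at Foxo3, Foxo1 and Foxo6, and the islands with the most reads without a peak were at Foxa2, Foxe3 and Foxa1, regulators of endoderm and lens.

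The next counts stand beside shares of all genes of 9.84% both marks, 49.4% H3K4me3 only and 12.6% H3K27me3 only. LIM homeobox genes numbered 12, with both marks at Isl1 and Lhx2 and H3K27me3 only at the other 10. Nkx genes numbered 14, with both marks at Nkx2-2 and Nkx6-2, among others. Among 6 Irx genes, Irx3 and Irx5 had both marks, and among 6 sine oculis homeobox genes, Six3 and Six4 had both and Six5 had H3K4me3 only. The Six3 peak had a −log10 q of 152 and overlapped an island of 592 reads in part. Of 19 proneural genes of the bHLH class, 7 had both marks, including Olig1 (2253 bp, −log10 q 39.4), Olig2 and Neurog2, and 9 had H3K27me3 only. Ligands of the Wnt, Fgf, Bmp and hedgehog families counted 17 with both marks and 22 with H3K27me3 only of 52, with Shh in the first group (2604 bp peak in an island of 3302 reads) and Bmp4 first in the second (5548 reads).

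**Figure D5:**
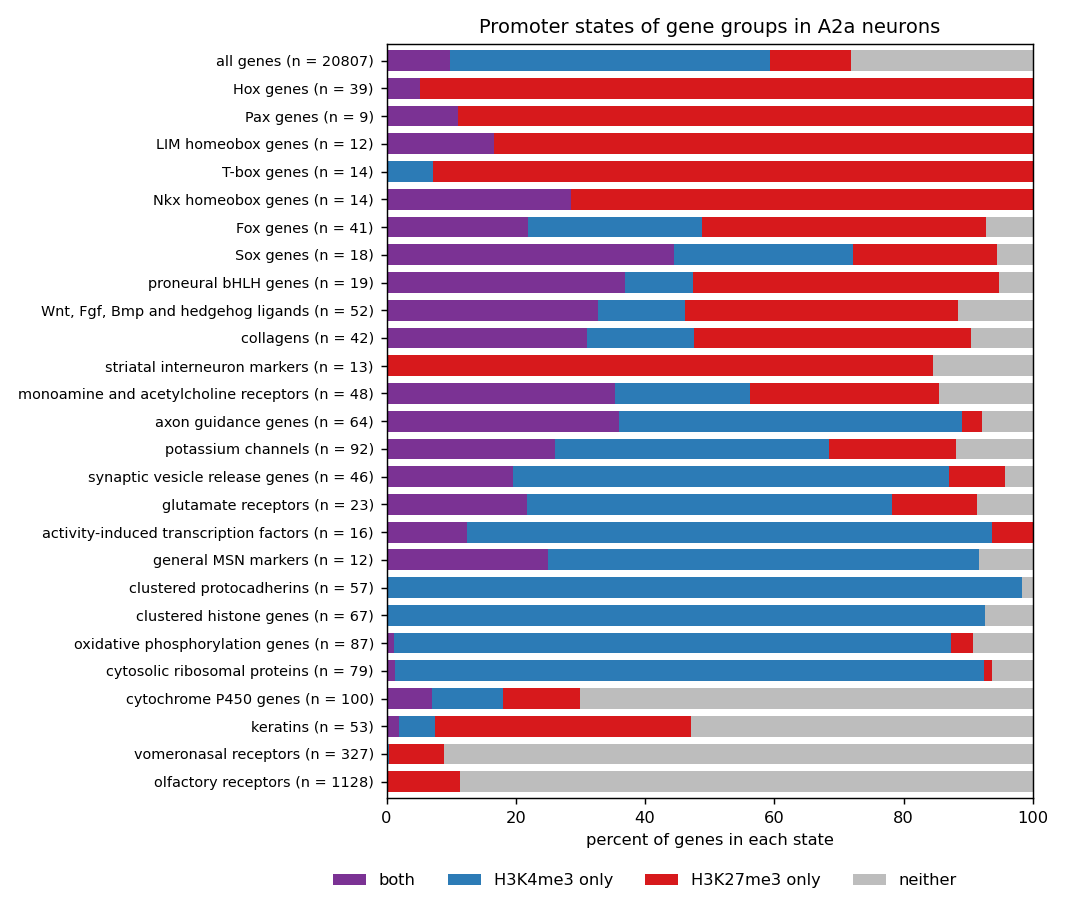
Percent of genes in each promoter state (horizontal axis) for all genes and for 26 gene groups, with the number of genes in each. Hox, Pax, LIM and T-box genes are mostly H3K27me3 only, axon guidance genes are split between H3K4me3 only and both, clustered protocadherins and histone genes have no island, and olfactory receptors have no peak.

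Genes that every cell uses were mostly free of islands. Of 79 cytosolic ribosomal protein genes, 72 had H3K4me3 only and 5 had neither. Rpl38 had both marks, with a peak of 1631 bp apart from an island of 119 reads, and Rpl17 had H3K27me3 only. Of 87 genes of oxidative phosphorylation, 75 had H3K4me3 only. The 3 with H3K27me3 only were Cox4i2, Cox6a2 and Ndufa4l2, isoforms of muscle, lung or low oxygen. Mitochondrial ribosomal proteins (73 of 78), translation initiation factors (45 of 52), splicing factors (28 of 32) and proteasome subunits (30 of 38) had H3K4me3 only, against 49.4% of all genes. The 3 proteasome genes with both marks, Psmb8, Psmb9 and Psmb10, encode the catalytic subunits of the immunoproteasome. Of 24 genes of the Polycomb machinery, 18, among them Ezh2 and Eed, had H3K4me3 only, and both marks were found at Cbx2 and Pcgf1, among others.

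Clustered protocadherins and histone genes had no island at all, next to 22.4% of all genes with one. Across all genes, 49.4% had H3K4me3 only and 9.84% both marks. Of 57 clustered protocadherins, which give neurons their surface identity, 56 had H3K4me3 only, 1 had neither and none had an island. Their median peak was 799.5 bp with a −log10 q of 43.2, less than the 1674 bp and 137.9 of all genes with H3K4me3 only. Clustered histone genes, 62 of 67, likewise had H3K4me3 only, with a median peak of 1725 bp. Their median CpG ratio was 0.879, within CpG class 4, where 87.4% of genes had H3K4me3 only and 12.2% an island. Of 385 Zfp-named zinc finger genes, 295 (76.6%) had H3K4me3 only and 25 (6.49%) had both, the latter including Zfp423 with an island of 5281 reads.

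Over 426 genes in the neuronal groups, 56.6% had H3K4me3 only, 21.1% both, 12.4% H3K27me3 only and 9.86% neither. The shares of all genes were 49.4%, 9.84%, 12.6% and 28.2%, so H3K27me3 only stood near its share of all genes. Axon guidance genes had both marks at 23 of 64, the highest share among these groups (35.9%), including Efna5 (3751 bp), Sema6a (3667 bp), Epha7 (3593 bp) and Robo2 (3519 bp), while Robo4 and Epha1, used by endothelium and epithelium, had H3K27me3 only. At Efna5, Epha7 and Robo2 the islands held only 175, 147 and 212 reads and overlapped the peak in part. Of 92 potassium channel genes, 39 had H3K4me3 only, 24 both, 18 H3K27me3 only and 11 neither. The widest peak in that group was at Kcnj2, and the island with the most reads was at Kcnj6 (6676 reads), which had both marks.

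Receptor genes were spread over the 4 states, whose shares of all genes were 9.84% both, 49.4% H3K4me3 only, 12.6% H3K27me3 only and 28.2% neither. Of 23 glutamate receptor genes, 13 had H3K4me3 only, led by Grm5 (4043 bp) and Gria2 (3891 bp), the receptors of corticostriatal input. Grik1, Grik3, Grin3a, Grm2 and Grm8 had both marks, and Grin2c, Grin3b and Grm6, the last of the retina, had H3K27me3 only. GABA receptors counted 12 with H3K4me3 only, 2 with H3K27me3 only and 4 with neither of 18, and the absence of genes with both marks rests on few genes. Receptors for monoamines and acetylcholine were the most mixed, with 17 with both marks, 10 with H3K4me3 only, 14 with H3K27me3 only and 7 with neither of 48. Htr1b, the serotonin receptor of MSN terminals, had a peak of 3752 bp and an island of 354 reads, and Drd5 and Adra1d headed the group with H3K27me3 only (18133 and 4227 reads). Synaptic vesicle release genes had H3K4me3 only at 31 of 46, with Snap25 at 2782 bp, and H3K27me3 only at Syt2, Syt8, Syt15 and Vamp5.

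Smaller neuronal groups followed. H3K4me3 only was found at 56.4% of sodium and calcium channel genes and 47.8% of cadherins, near the 49.4% of all genes. It was found at 81.25% of activity-induced factors. Of all genes, 9.84% had both marks and 12.6% H3K27me3 only. Of 39 sodium and calcium channel genes, 22 had H3K4me3 only and 6 both, including Scn1a and Cacna1e, and Scn10a and Scn11a of sensory neurons, Cacnb3 and Cacng6 had H3K27me3 only with 167 to 258 reads. Among 23 cadherins, 11 had H3K4me3 only, and Cdh1, Cdh3, Cdh5, Cdh16 and Cdh23 had H3K27me3 only. Of 16 activity-induced transcription factors, 13 had H3K4me3 only, with Egr1 at 3317 bp and Jun at 3315 bp, while Egr2 had H3K27me3 only with 797 reads and Nr4a2 had both marks with an island of 8015 reads.

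Genes of other tissues mostly lacked a peak, though 20 of 42 collagens had one. Of the 42 collagens, 13 had both marks (31.0%), 7 H3K4me3 only and 18 H3K27me3 only (42.9%). The shares of all genes were 9.84%, 49.4% and 12.6%. The collagens had a median CpG ratio of 0.435. Of 1128 olfactory receptor genes, 1000 had neither mark, 128 had H3K27me3 only and none had a peak, with a median CpG ratio of 0.106. These 128 genes are 11.35% of the family, near the 12.6% of all genes with H3K27me3 only. The islands at these 128 genes held a median of 214 reads, against 391 over all genes with H3K27me3 only, and Olfr1410, Olfr1411 and Olfr1412 shared the largest, of 2271 reads. Vomeronasal receptors had neither mark at 298 of 327 genes, and Vmn1r4 alone had a peak. Taste receptors (28 of 35), beta-defensins (37 of 42), cytochrome P450 genes (70 of 100) and keratins (28 of 53) also had neither mark more often than the 28.2% of all genes. Another 21 of the 53 keratins (39.6%) had H3K27me3 only, against 12.6% of all genes. Among the P450 genes, Cyp46a1, which clears cholesterol from neurons, and Cyp51, of cholesterol synthesis, had H3K4me3 only, and Cyp26b1, which breaks down retinoic acid, had an island of 3939 reads and no peak.

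The label of the nuclei was read from marker genes. All 5 markers of the indirect pathway that could be placed had a peak, next to 59.3% of all genes, and Gpr52 was not among the genes classified. The median −log10 q of these 5 peaks was 79.8, below the 129 of all genes with a peak. Adora2a (3697 bp, −log10 q 182) and Gpr6 (2520 bp) had no island. The islands at Drd2, Penk and Sp9 held 160, 200 and 590 reads. Of 6 markers of the direct pathway, Tac1, Pdyn, Eya1, Isl1 and Drd1 had both marks and Chrm4 had H3K27me3 only. A peak was thus called at 5 of these 6 as well, so its presence alone does not tell the 2 groups apart. In the direct group the median peak −log10 q was 10.2 and the median island 3809 reads, against 79.8 and 200 reads in the indirect group. Both groups held genes with both marks, with weaker peaks and larger islands in the direct group. Among 12 markers of all MSNs, 8 had H3K4me3 only, from Bcl11b (4217 bp) to Adcy5 (1054 bp), Gad2, Rasd2 and Gnal had both, and Gad1 had neither at its annotated 5′ end and both when every transcript start was counted.

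Markers of other cells were not uniform. None of 13 striatal interneuron markers had a peak, and 11 had an island, with Sst at 4907 reads, Chat at 2235 and Pvalb at 648, while Nos1 and Th had neither mark. Of 7 cortical excitatory markers, 5 had H3K27me3 only, including Fezf2, Tbr1 and Neurod2, and Emx1 and Slc17a7 had both. Peaks were called at 6 of 8 oligodendrocyte markers, 4 of 7 astrocyte markers and 3 of 8 microglial markers, next to 59.3% of all genes. The 8 oligodendrocyte markers split into 3 with both marks, 3 with H3K4me3 only, 1 with H3K27me3 only and 1 with neither. Their median peak −log10 q was 27.1, and the islands at 4 of them held a median of 1656 reads. Mbp had a peak of 1961 bp with a −log10 q of 171 and no island, Cnp one of 1218 bp and Mog one of 1093 bp. Slc1a3, Sox9, Gja1 and Slc1a2 of astrocytes had both marks, and Aqp4 and Gfap neither. Tmem119 of microglia had both marks, P2ry12 a peak of 567 bp alone, and Kdr was the 1 of 6 endothelial markers with a peak. H3K27me3 only was found at 3 of the 8 microglial and 4 of the 6 endothelial markers, against 12.6% of all genes. The part of nuclei from such cells in the states was not tested.

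Neighbours along a chromosome tended to share a state. The gene next to one with H3K27me3 only was itself H3K27me3 only in 30.5% of cases, against 12.6% of all genes, and the gene next to one with both marks had both in 20.1%, against 9.84%. For H3K4me3 only the shares were 65.3% and 49.4%, and for neither 56.2% and 28.2%. Neighbouring windows can hold the same peak or island, which alone gives neighbours a mark in common. Of 10284 genes with H3K4me3 only, 2606 shared their widest peak with another gene of that state. Of 2614 genes with H3K27me3 only, 300 so shared their longest island. Of 2047 genes with both marks, 139 shared the peak and 165 the island. How much of the likeness between neighbours comes from such sharing was not tested. By chromosome, genes with both marks made up from 4.94% on chromosome 7 to 16.6% on chromosome 3. Genes with both marks were long, with a median of 36.6 kb, against 24.0 kb for H3K4me3 only, 12.7 kb for H3K27me3 only and 8.64 kb for neither.

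Windows without a mark were mostly far from one. From the window of a gene with H3K27me3 only the nearest peak was at a median distance of 38.4 kb, and from the window of a gene with neither it was at 59.9 kb. Genes with H3K4me3 only lay a median of 45.0 kb from the nearest island. Counting all annotated transcript starts, 5053 of the 5862 genes with neither mark still had none, while 490 gained a peak alone, 250 an island alone and 69 both. Cacna1a, Jarid2 and Rps2 are examples with a peak at another annotated start.

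The same genes were placed in D1 neurons by the same rule. H3K4me3 only was also found in D1 at 97.7% of the 10284 genes and neither at 97.2% of the 5862. Of the 2614 genes with H3K27me3 only, 62.4% were so in D1 and 37.1% had neither. Of the 2047 genes with both marks, 1127 (55.1%) had both in D1, 550 lacked the island, 303 lacked the peak and 67 lacked both. Conversely, 93.6% of the 1204 genes with both marks in D1 had both in A2a. The lists are not scaled between cell types and do not give their depth, so a mark present in 1 list only was not tested as a difference.

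At genes with both marks in A2a, the marks without a counterpart in D1 were weaker at the median than those with one. The strength of islands at the 971 genes with H3K27me3 only in A2a and neither mark in D1 was not compared. At the 550 genes without an island in D1, the A2a island had a median of 4 kb and 64.3 reads per kb, against 8.6 kb and 90.5 at the 1127 genes with both marks in each cell type. At the 303 genes without a peak in D1, the A2a peak had a median width of 638 bp and a −log10 q of 8.63, against 1397 bp and 43.0. Syt1, Ankrd63, Sox2, Smyd2 and Gng2 had both marks in D1, Igfbp5 and Tle1 had H3K4me3 only there, and Hoxd1 and Zic4 had H3K27me3 only.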

How the data were processed

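H3K4me3 and H3K27me3 were profiled by CnR in INTACT-purified A2a nuclei of 2 replicates per mark. Per the methods and the submitters' processing notes, the authors used Bowtie2 (version 2.1.0) for alignment on mm10 and SAMtools (version 0.1.19), required a mapping quality of 20, removed duplicates and pooled replicates. The deposited H3K4me3 list from MACS2 (q-value threshold 0.01) gives each peak a fold enrichment, which is a ratio over local background, and a −log10 q-value. The deposited H3K27me3 list from SICER (window 200 bp, gap 600 bp, false discovery rate 0.01) gives each island a count of reads, not normalized. The control given to SICER is not named in the sources used here. The lists do not give the depth per sample, and no value compares marks.

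GENCODE vM21 genes gave the TSS. Shares have Wilson 95% intervals and medians have binomial order-statistic 95% intervals (scipy version 1.17.1), and the median of a state is over genes. A threshold of the callers decides each state, and an absent call does not show an absent mark. CpG ratios and the printed bases were read from the GRCm38 RefSeq assembly, on which all of the peaks and islands lay within the chromosome ends. The classification was tested on simulated peaks and islands. Genes and gene groups were chosen with earlier results of these data known. Named are the 5 genes with the widest peak or the most island reads of a state (1 gene per peak or island), markers, and, in a group, members of a state holding 5 or fewer or the 4 strongest of the fullest state. Examples outside this rule, among them Shh, Olig1, Zfp423, Cyp46a1, Cyp51, Cyp26b1, Kcnj6, Htr1b, Efna5, Cacna1e, Olfr1410 and the transcript-start examples, were picked after their values were seen. Some members of the groups are not reported here. Alternatives of window, TSS, thresholds and overlap are given in the closing section.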

Additional observations from a re-analysis of the deposited data

How the results depend on the processing

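No paired analysis was possible because the deposited lists pool the replicates of each mark, which also leaves no list without 1 replicate. Over 13 alternatives, no ratio changed sides of 1. Of the 13, 2 were chosen after seeing the data (each peak and island counted once, and CpG classes from the whole window). In all, 102 of 124 values stayed within 1.5 times the reported count or inside the interval of the reported value. For a ratio of medians this interval is set by the extremes of the 2 separate 95% intervals. It is therefore wider than a 95% interval of the ratio. Over all annotated genes in place of protein-coding autosomal ones, H3K27me3 only counted 7967, neither 30784, and the index was 1.17. The index was 1.26 with the window widened to 5 kb on either side and 1.27 with the start of any annotated transcript. It was 1.42 when peak and island had to overlap. That setting left out the 203 genes whose marks lay apart, and so removed genes with both marks alone. Peak width at genes with both marks over that with H3K4me3 only, 0.795 as reported, was 0.817 with the wider window and 0.814 with any transcript. The same ratio of −log10 q, 0.292 as reported, was 0.262 with 1 kb on either side, 0.421 with 5 kb, 0.346 with any transcript and 0.253 where the marks had to overlap. Merging islands within 5 kb moved the ratio of island length from 1.25 to 1.07, with an interval of 0.9355 to 1.22 that includes 1, and of density from 1.15 to 1.10. Peak and island overlapped at 90.1% of genes with both marks, 97.1% with 1 kb on either side, 69.6% with 5 kb, 81.1% with any transcript and 91.8% with an overlap of at least 200 bp. Over the whole TSS window the CpG ratio was 0.495 for both, 0.537 for H3K4me3 only, 0.246 for H3K27me3 only and 0.1599 for neither. In CpG class 4 the ratio of density, both over H3K27me3 only, ran from 0.593 to 0.704 over its alternatives, and in class 3 from 0.726 to 0.790.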
